A study of Mus musculus with 4 samples.

Results

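Aminoacyl-tRNA synthetases join each amino acid to its transfer RNA, the step that feeds the ribosome with charged tRNA. Most cells keep separate sets of these enzymes for the cytosol and for the mitochondrion, and several cytosolic ones are held together in the multisynthetase complex. When charged tRNA runs short, the kinase encoded by *Eif2ak4* raises the translation of ATF4, a transcription factor that binds CARE sequences (C/EBP-ATF response elements) at synthetase and amino acid genes. Pancreatic acinar cells make large amounts of secreted protein. NFIC belongs to the nuclear factor I (NFI) family, whose dimers bind a palindrome of TGGC and GCCA.

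The synthetase genes were taken by their symbols, in the merged NFIC ChIP-Seq peak list of mouse pancreas and, for genes without a peak, in the RefSeq annotation. A total of 37 protein-coding synthetase genes were counted, of which the 17 whose symbol ends in 2 were called mitochondrial and the other 20 cytosolic. Of 15824 peaks in the list, 23 were assigned to 16 of these genes. The products of *Gars* and *Kars* serve both compartments and were counted as cytosolic. The study sequenced 3 libraries of NFIC-bound chromatin and 1 library of input DNA from pancreata of wild type mice of mixed strain, aged 8 to 12 weeks in the deposited description. The list merges the 3 libraries, so it has no replicate error, the depth of the libraries is unknown, and values are compared below without a test. The chromatin came from whole pancreas, so binding in a few cells and weak binding in many cannot be told apart, and a peak list holds no expression by which to check the tissue. Intervals are 95% Wilson intervals of the counts and cover counting error only.

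The sequences under the peaks show what the binding data look like at these genes. Each is given 5′ to 3′ on mm10 with the matching bases in capitals. An NFI full site is TGGC and GCCA with 5 bases between them, of whose 8 fixed bases no more than 1 may differ, searched on both strands in the 200 bp around the centre of a peak. Near the TSS (transcription start site), the NFI full sites were those of *Nars2*, with 1 mismatch, 9 bp from the centre of its peak, and *Lars2*, with 1 mismatch, 50 bp from the centre. A further site, in the *Lars* peak, is not printed.
*Nars2*, chr7:96951200-96951228, plus strand: gaattgttTGGCTACCACCCAacagtgac
*Lars2*, chr9:123367007-123367035, plus strand: gcagaaggTAGCAGCTGGCCAgacagagc
Sites without a mismatch lay under 4 peaks, all inside introns, and are shown because they match the palindrome in full. These were chosen after their values were seen, as were the sequences that follow them. No share over all peaks is given for sites without a mismatch, so the count of 4 cannot be called high or low.
*Cars*, chr7:143595104-143595132, plus strand: caaacctcTGGCAAAGAGCCAgcgccagg
*Lars2*, chr9:123392988-123393016, plus strand: cacaacgcTGGCAGATTGCCAggatgtaa
*Fars2*, chr13:36296033-36296061, plus strand: acatgtgtTGGCTGCTGGCCAtcatttga
*Tars*, chr15:11287330-11287358, plus strand: cacctgcaTGGCAGACAGCCAagatgcat
The peaks with the highest scores, at *Farsb* and *Sars*, held no full site but the single-arm NFI sequence TTGGCA, 18 bp and 7 bp from their centres.
*Farsb*, chr1:78489139-78489160, minus strand: tacccaacTTGGCAtcttccct
*Sars*, chr3:108477020-108477041, plus strand: aaatgtatTTGGCAcaaagacc

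A peak was assigned to 16 of the 37 synthetase genes, or 43.2% (28.7 to 59.1). Over the 21000 protein-coding genes with a curated TSS the share was 37.2%, inside that interval. Among cytosolic synthetases 10 of 20 genes had a peak (50%, 29.9 to 70.1), with 14 peaks in all. Among mitochondrial synthetases the count was 6 of 17 (35.3%, 17.3 to 58.7), with 9 peaks. The intervals of the classes overlapped widely. The same order was seen in lists from the same compartments, with 35 of 71 translation initiation and elongation factors (49.3%) and 25 of 78 mitochondrial ribosomal proteins (32.1%). The first list was taken by symbols that begin with Eif or Eef and a digit, so it also held genes such as *Eif2ak4* and *Eef1e1*. Within 1000 bp of a RefSeq TSS the shares of these lists were close, at 26.8% and 26.9%, beside 20.4% of all genes. Within the cytosolic class, 3 of the 8 synthetases of the multisynthetase complex had a peak (*Dars*, *Lars* and *Qars*), against 7 of the 12 others. This order did not hold near the TSS. From -1000 bp to the TSS the counts were 2 of 8 and 2 of 12, and within 1000 bp of a RefSeq TSS 3 of 8 and 3 of 12.

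**Figure D1:**
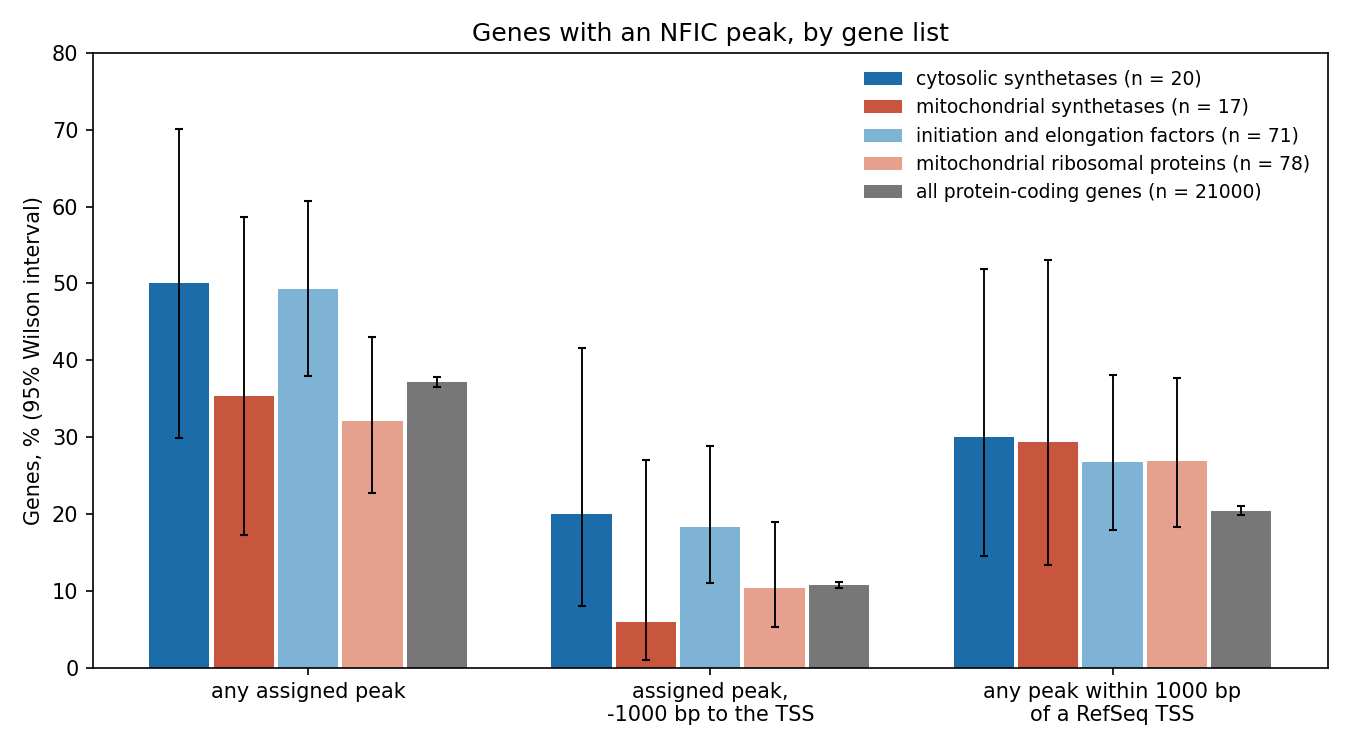
Share of genes (%, bars from 0, with 95% Wilson intervals) with any assigned NFIC peak, with an assigned peak from -1000 bp to the TSS, and with any peak within 1000 bp of a RefSeq TSS, for both synthetase classes, comparison lists and all protein-coding genes. The classes are at 50% and 35.3% for any assigned peak, 20% and 5.88% for the promoter window, and 30% and 29.4% when every RefSeq TSS is counted within 1000 bp, with overlapping intervals each time.

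From -1000 bp to the TSS, 4 of 20 cytosolic genes had a peak (20%, 8.07 to 41.6), namely *Farsb*, *Lars*, *Qars* and *Aars*. In the same window 1 of 17 mitochondrial genes had one (5.88%, 1.05 to 27), namely *Nars2*. The share over all protein-coding genes was 10.7%, inside both intervals. The difference between the classes depended on where the promoter was taken to end. With the window extended to 100 bp downstream, the counts were 4 cytosolic and 3 mitochondrial genes, as *Lars2* and *Hars2* entered, beside 13.6% of all genes. Up to 1000 bp downstream they were 5 and 4, as *Dars* and *Iars2* entered, beside 18.1%. When each peak was also counted for every RefSeq TSS within 1000 bp, 6 of 20 cytosolic genes (30%, 14.5 to 51.9) and 5 of 17 mitochondrial genes (29.4%, 13.3 to 53.1) had a peak, beside 20.4% of all genes. The *Hars2* peak was counted in both classes here, for *Hars* and for *Hars2*, so these counts are not independent.

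**Figure D2:**
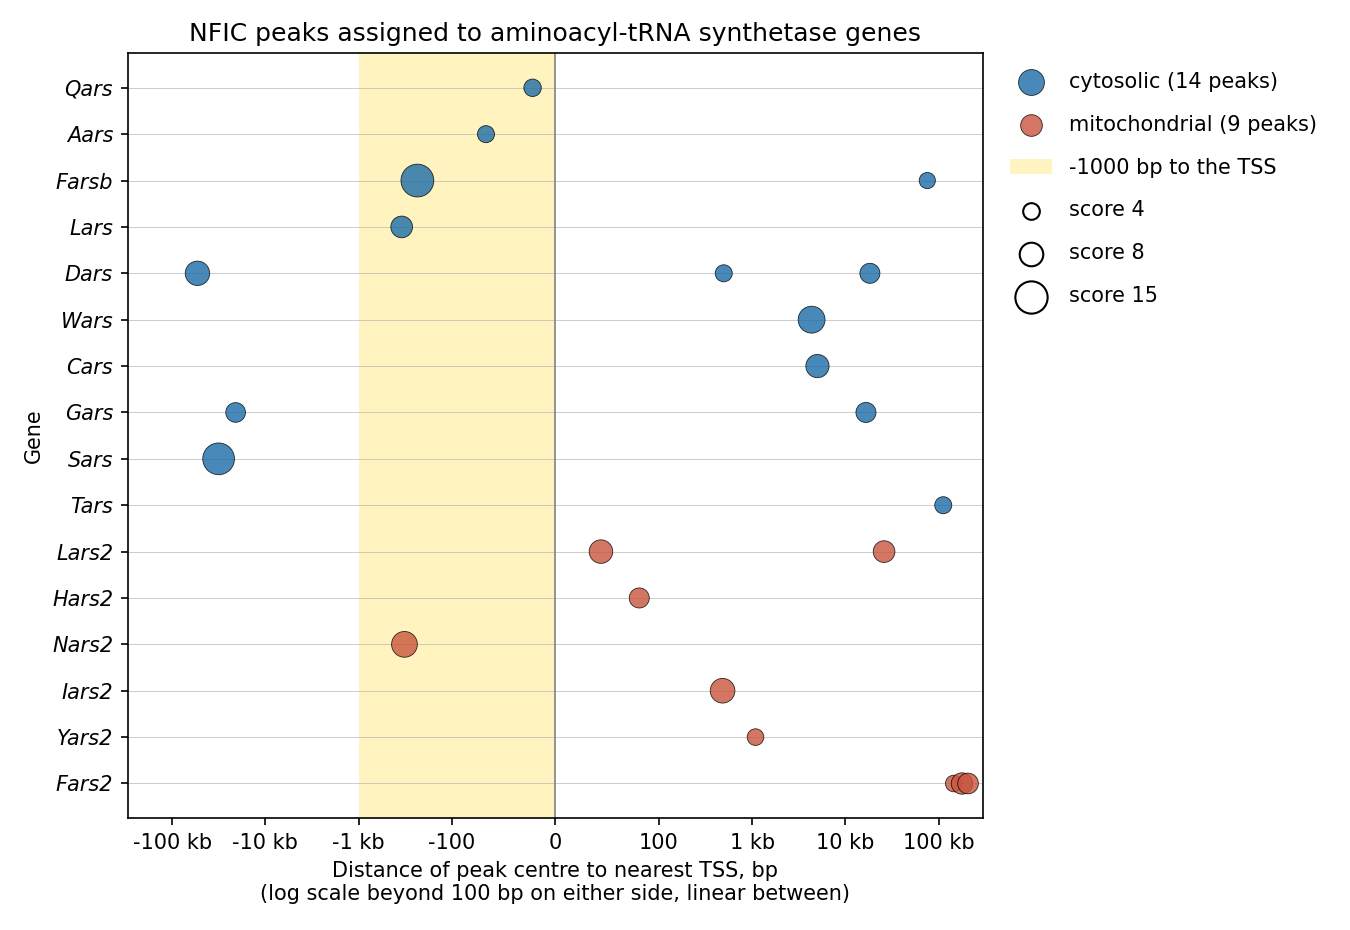
Distance of each of the 23 assigned peaks to the TSS (bp, negative upstream, linear within 100 bp and logarithmic beyond) for the 16 synthetase genes with a peak, with the area of each circle proportional to the peak score. Within 1000 bp of the TSS, 4 of 5 cytosolic peaks lie upstream and 3 of 4 mitochondrial peaks downstream. Of all 4335 peaks in the list within 1000 bp, 2433 lie from -1000 bp to the TSS. The largest circles are those of *Farsb* and *Sars*.

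*Farsb*, which encodes the beta subunit of the phenylalanyl-tRNA synthetase, had the promoter peak with the highest score. It lay at chr1:78489045-78489217, 234 bp upstream of the TSS, with a score of 15.5, above 94.7% of all peaks. The score is the authors' own, on a scale not given in the sources used here, and its median over all peaks was 6.57. At *Lars*, for leucyl-tRNA, the peak at chr18:42262330-42262502 lay 345 bp upstream and scored 6.77, above 51.2% of all peaks. Of the 23 distances in the list, this was the only one that differed from the RefSeq annotation used here, which gave -291 bp. *Aars*, the alanyl-tRNA synthetase, had a peak at chr8:111033689-111033861, 67 bp upstream, with a score of 4.18, above 8.34% of all peaks. *Qars*, for glutaminyl-tRNA, had a peak at chr9:108507897-108508069, 22 bp upstream, with a score of 4.38, above 12.5% of all peaks. The cytosolic promoter peaks ranked from above 8.34% to above 94.7% of all peaks, and 2 of the 4 (*Farsb* and *Lars*) were in the upper 2 quartiles, beside 51.9% of all peaks from -1000 bp to the TSS. By genes, these were 2 of 20 cytosolic synthetases (10%, 2.79 to 30.1), beside 5.57% of all genes. The mitochondrial peak of *Nars2* was in the upper 2 quartiles too. Counting any assigned peak of the upper 2 quartiles, 6 cytosolic and 4 mitochondrial genes had one, beside 21.9% of all genes.

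*Nars2*, the mitochondrial asparaginyl-tRNA synthetase, had the highest score of its class. Its peak at chr7:96951119-96951291 lay 322 bp upstream and scored 9.56, above 76.9% of all peaks. The other mitochondrial peaks near a TSS were downstream of it. *Lars2*, for mitochondrial leucyl-tRNA, had a peak at chr9:123366885-123367057, 44 bp downstream, with a score of 7.97. The peak of *Hars2*, for histidyl-tRNA, lay at chr18:36783204-36783376, 81 bp downstream, and scored 5.78. *Iars2*, for isoleucyl-tRNA, had a peak in intron 1 at chr1:185328833-185329005, 482 bp downstream, with a score of 8.76. Among cytosolic genes, *Dars*, for aspartyl-tRNA, had a comparable peak at chr1:128416834-128417006, 496 bp downstream in intron 1, that scored 4.18. The peak of *Yars2*, for mitochondrial tyrosyl-tRNA, lay just outside this window, 1087 bp downstream in intron 1, and scored 3.98.

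Within 1000 bp of the TSS the 9 synthetase peaks had a median score of 6.77, against 6.37 over all 4335 such peaks. Of the 14 cytosolic peaks, 7 lay upstream and 7 downstream of the TSS, and of the 9 mitochondrial peaks 1 lay upstream and 8 downstream, beside 44.5% upstream and 55.4% downstream over all peaks. Of the 8 downstream mitochondrial peaks, 3 were of *Fars2* and 2 of *Lars2*. By the highest peak of each gene, the median score was 7.27 in both classes, with a range of 4.18 to 15.5 in the 10 cytosolic genes and 3.98 to 9.56 in the 6 mitochondrial genes. The ranges overlapped, with *Farsb*, *Sars* and *Wars* above every mitochondrial gene and *Yars2* below every cytosolic gene. When only peaks within 1000 bp of the TSS were taken, the median was 4.38 in 5 cytosolic genes and 8.37 in 4 mitochondrial genes. The highest of these scores, 15.5, was that of the cytosolic gene *Farsb*. Over all 23 peaks, 11 were in the upper 2 quartiles of score (47.8%), beside 51.6% of all peaks, a share above 50 because peaks tied at the median were kept. The focus ratio, the fraction of tags of a peak that the authors give as centred, had a median of 0.697 at synthetase peaks and 0.684 over all peaks.

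Farther than 1000 bp from the TSS lay 14 of 23 synthetase peaks (60.9%), beside 72.6% of all peaks. By the deposited annotation 14 of 23 lay in introns, 7 at promoters and 2 between genes, beside 40.8%, 20.7% and 30.6% of all peaks. All 6 intronic mitochondrial peaks were in the gene they were assigned to, while 3 of 8 intronic cytosolic peaks were in the intron of another gene. Of those 6, 3 were of *Fars2*. The share over all intronic peaks is not given here, so no difference between the classes is read from these counts. *Sars*, for seryl-tRNA, had a single peak of score 14.5, above 93.2% of all peaks, 31.8 kb upstream in intron 7 of *Elapor1* (chr3:108476937-108477109). *Wars*, for tryptophanyl-tRNA, had a peak 4347 bp downstream in intron 1 with a score of 10.4 (chr12:108888765-108888937). *Cars*, for cysteinyl-tRNA, had a peak 5023 bp downstream in intron 1 with a score of 7.77, on the exact NFI site printed above. These 3 genes had no peak within 1000 bp of the TSS, and their only peak was above the median score.

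*Gars*, for glycyl-tRNA, had peaks 20.9 kb upstream and 16.6 kb downstream, with scores of 5.58 and 5.78, and each held an NFI full site with a mismatch. *Tars*, for threonyl-tRNA, had its only peak 112 kb downstream in intron 16 of *Adamts12*, with a score of 4.18. *Dars* had further peaks 53.6 kb upstream and 18.4 kb downstream, scoring 8.56 and 5.78. The second peak of *Farsb* lay 75.8 kb downstream in intron 4 of *Sgpp2* and had the lowest score of the group, 3.78. Distal cytosolic peaks, from *Farsb* at 3.78 to *Sars* at 14.5, lay on both sides of the median over all peaks. *Lars2* had a second peak 26.1 kb downstream in intron 4 that scored 6.77. *Fars2*, for mitochondrial phenylalanyl-tRNA, had 3 peaks in intron 3, at 146 kb, 178 kb and 207 kb from the TSS, with scores of 3.98, 6.57 and 6.17. The *Fars2* peak at 178 kb held an exact NFI full site and lay on a MER3 repeat.

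Peaks listed under another gene also lay at synthetase genes. The *Hars2* peak was 85 bp upstream of the TSS of *Hars*, the cytosolic histidyl-tRNA synthetase, since these genes are divergent with start sites 4 bp apart. At *Fars2*, a peak listed under *Lyrm4*, which encodes a protein of iron-sulfur cluster assembly, lay 293 bp upstream of the *Fars2* TSS (chr13:36117264-36117436) with a score of 6.97. The start sites of *Fars2* and *Lyrm4* are 286 bp apart. Intron 14 of *Nars*, for asparaginyl-tRNA, held a peak listed under *Fech* with a score of 4.98, and intron 5 of *Fars2* one listed under *Nrn1* with a score of 6.57. A divergent protein-coding TSS within 1000 bp upstream was present at 8 of 37 synthetase genes (21.6%, 11.4 to 37.2), beside 7.59% of all protein-coding genes. The shares were 32.1% of mitochondrial ribosomal proteins, 18.3% of initiation and elongation factors and 18.8% of the other genes of tRNA charging listed below. *Hars* and *Hars2* are partners of each other, so their shared promoter was counted under both genes. Such a TSS was found at *Hars*, *Kars*, *Vars* and *Wars* and at *Ears2*, *Fars2*, *Hars2* and *Sars2*, and 3 of the 8 had a peak within 1000 bp, beside 34.1% of all genes with such a TSS. Of these, *Hars* and *Hars2* share a single peak.

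Enzymes for the same amino acid were compared across compartments in 17 pairs. A peak was assigned to both genes in 2 pairs (*Farsb* with *Fars2*, *Lars* with *Lars2*), to the cytosolic gene alone in 6, to the mitochondrial gene alone in 4 and to neither in 5. By peaks within 1000 bp of any RefSeq TSS, both genes had a peak in 3 pairs, for phenylalanine, histidine and leucine. For histidine this was the peak that *Hars* and *Hars2* share. In that count the cytosolic gene alone had a peak in 2 pairs, *Aars* among them, and the mitochondrial gene alone in 2, *Iars2* and *Nars2*, and 10 pairs had none.

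No peak was assigned to 21 synthetase genes, and of these *Hars* alone had a peak within 1000 bp. The other 9 cytosolic genes had their nearest peak 14.6 kb (*Farsa*) to 81.2 kb (*Rars*) from a TSS, and were *Farsa*, *Nars*, *Vars*, *Mars1*, *Eprs*, *Yars*, *Iars*, *Kars* and *Rars*. For the 11 mitochondrial genes the range was 19.8 kb (*Mars2*) to 268 kb (*Rars2*), and *Tars2*, *Pars2*, *Vars2*, *Sars2*, *Cars2*, *Aars2*, *Ears2* and *Wars2* were among those between them. The list holds only called peaks, so weaker binding at these genes was not detectable here. Over all members the median distance from a TSS to the nearest peak was 15.5 kb for cytosolic genes, 27.8 kb for mitochondrial genes and 29.6 kb for all protein-coding genes. It was shorter in both comparison lists, at 10.2 kb for initiation and elongation factors and 12.4 kb for mitochondrial ribosomal proteins. A peak lay within 10 kb of the TSS in 8 of 20 cytosolic and 6 of 17 mitochondrial genes, beside 33.7% of all genes. Within 100 kb the counts were 19 of 20 and 15 of 17, beside 72.1% of all genes. For initiation and elongation factors the shares were 47.9% within 10 kb and 87.3% within 100 kb. Those of mitochondrial ribosomal proteins were 47.4% and 82.1%.

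**Figure D3:**
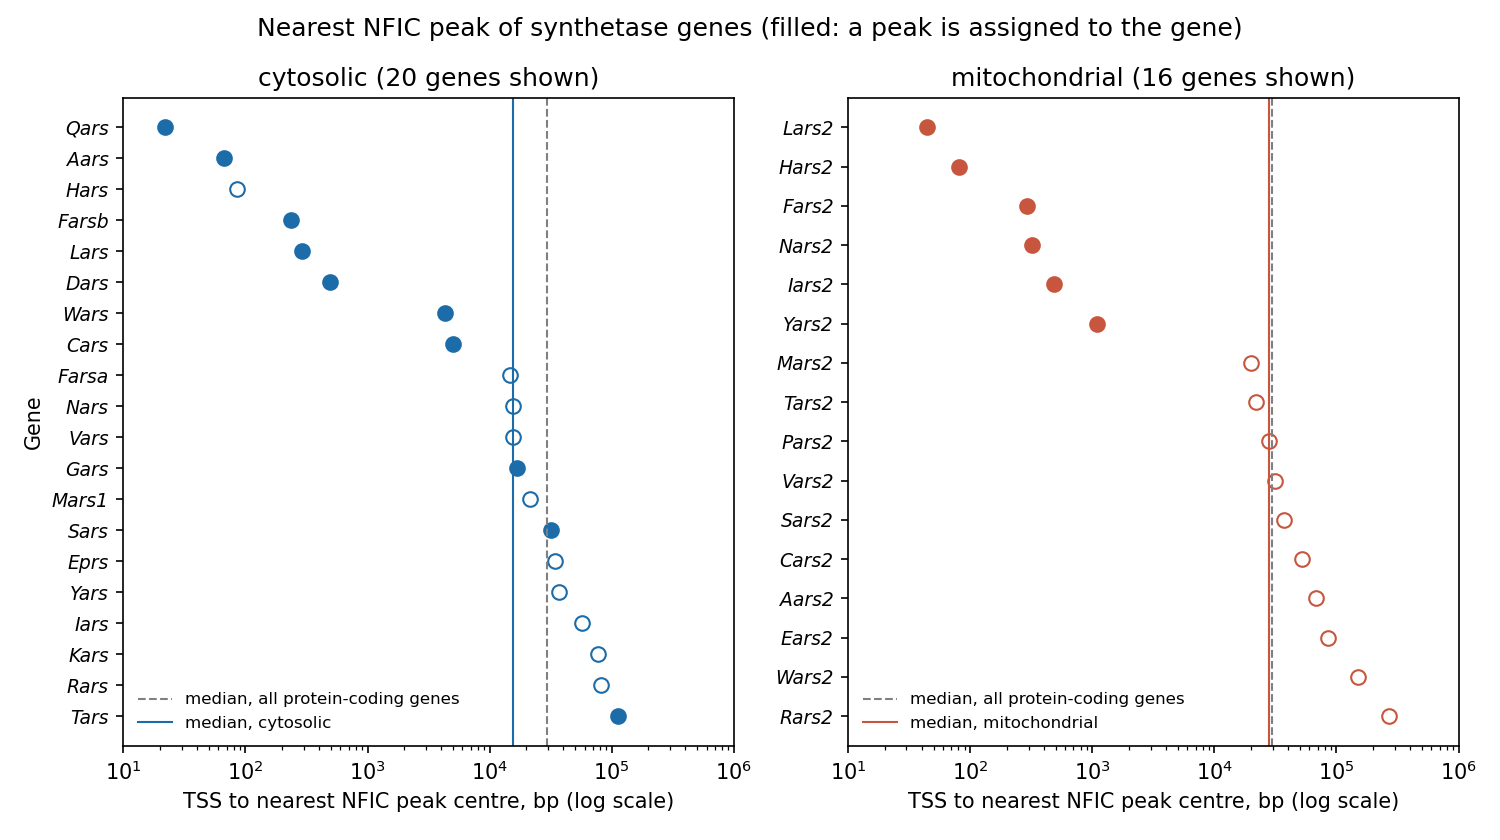
Distance (bp, log scale) from a RefSeq TSS to the centre of the nearest NFIC peak, whichever gene that peak is listed under, with lines at the class median and the median of all protein-coding genes. The points are 20 cytosolic and 16 mitochondrial synthetase genes, filled where a peak is assigned to the gene. *Fars2* is filled for its assigned peaks, while its point marks the nearer peak listed under *Lyrm4*. No mitochondrial gene shown lies between *Yars2* at 1087 bp and *Mars2* at 19.8 kb, and the cytosolic median of 15.5 kb lies below that of all genes, 29.6 kb. The medians of both comparison lists, not drawn, are lower than the cytosolic one.

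An NFI full site was found in 10 of 23 synthetase peaks (43.5%, 25.6 to 63.2), beside 51.8% of all peaks. The counts were 6 of 14 in cytosolic and 4 of 9 in mitochondrial peaks. Within 1000 bp of the TSS they were 3 of 9, beside 39.0% of all such peaks, at *Lars*, *Nars2* and *Lars2*. The promoter peaks of *Farsb*, *Aars* and *Qars* had no full site, and TTGGCA was present in those of *Farsb* and *Aars*. TTGGCA was found in 7 of 23 synthetase peaks, beside 33.6% of all peaks. The GC box GGGCGG, bound by SP factors, was present in 3 of 9 synthetase peaks within 1000 bp of the TSS, beside 54.5% of all such peaks. These were the peaks of *Farsb*, *Qars* and *Iars2*, the only synthetase peaks with a GC box (21.1% of all peaks). CCAAT, the NFY sequence, was in 3 of 23 synthetase peaks, those of *Aars*, *Qars* and *Farsb*, beside 24.7% of all peaks. All were within 1000 bp of the TSS, where the count was 3 of 9, beside 23.2% of all such peaks. The ETS sequence CCGGAAG was in the peaks of *Dars* at 496 bp and *Hars2*, or 2 of 23, beside 3.55% of all peaks. Within 1000 bp of the TSS this was 2 of 9, beside 9.69% of all such peaks. The YY1 site was in 1 peak, that of *Lars2* at 44 bp, beside 0.809% of all peaks and 2.05% of those within 1000 bp of the TSS. The NRF1 site was in 0 of 23 peaks, beside 2.16% of all peaks and 6.48% of those within 1000 bp of the TSS.

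The *Aars* peak was the only synthetase peak with the CARE sequence TGATGNAA, which was found in 1.79% of all peaks and 0.877% of those within 1000 bp of the TSS. It held 2 copies, 42 bp and 79 bp from its centre, and a TTGGCA 23 bp from the centre. The TTGGCA overlapped a CCAAT on the other strand, so the shared bases were counted under both sequences.
*Aars* CARE, chr8:111033722-111033745, minus strand: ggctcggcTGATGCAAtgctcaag
*Aars* CARE, chr8:111033843-111033866, minus strand: gagcgctcTGATGAAAagtgaccc
*Aars* TTGGCA, chr8:111033788-111033809, plus strand: ccgaatgaTTGGCAtgccagtg

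Promoter sequences from RefSeq (GRCm38.p6, 250 bp before to 50 bp after the start) were matched for 27 of the 37 genes, 13 cytosolic and 14 mitochondrial. CARE was present in 5 of 13 cytosolic promoters (38.5%, 17.7 to 64.5) and in 0 of 14 mitochondrial ones (interval 0 to 21.5), beside 4.13% of 16853 protein-coding genes. The genes were *Aars*, *Gars*, *Iars*, *Tars* and *Yars*, and of these *Aars* alone had an NFIC peak within 1000 bp of the TSS. Their sites are printed because they were in the cytosolic class only among the matched promoters and lie close to the TSS, beginning at -30 bp in *Gars*, 7 bp in *Iars*, -15 bp in *Tars* and 3 bp in *Yars*.
*Gars* CARE, chr6:55037963-55037986, minus strand: ccggtgcaTGATGAAAtagcgcag
*Iars* CARE, chr13:49682129-49682152, minus strand: tctggaggTGATGCAAtactgaca
*Tars* CARE, chr15:11399658-11399681, plus strand: taaccagcTGATGCAAcgggactc
*Yars* CARE, chr4:129189898-129189921, plus strand: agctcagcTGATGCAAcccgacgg
An NFI full site was in none of the 27 promoters (interval 0 to 12.5), beside 18.1% of genes, and TTGGCA in 5 of 27, beside 15.3%. CCGGAAG was in 5 of 13 cytosolic and 4 of 14 mitochondrial promoters, beside 13.3% of genes. The NRF1 site, with at most 1 mismatch, was in 3 of 13 and 5 of 14, beside 9.83%. The YY1 site, with at most 1 mismatch, was in 1 of 13 and 3 of 14, beside 3.47%. Both comparison lists, initiation and elongation factors and mitochondrial ribosomal proteins, were above all genes too. Their promoters held CCGGAAG in 30.9% and 37.7%, the NRF1 site in 20% and 24.6%, and the YY1 site in 12.7% and 15.9%. GGGCGG was in 8 of 13 and 11 of 14, beside 50.7%, and CCAAT in 7 of 13 and 6 of 14, beside 42.6%. The intervals of the classes overlapped for each of these motifs, CARE included. A match of letters is a description and not a bound site.

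**Figure D4:**
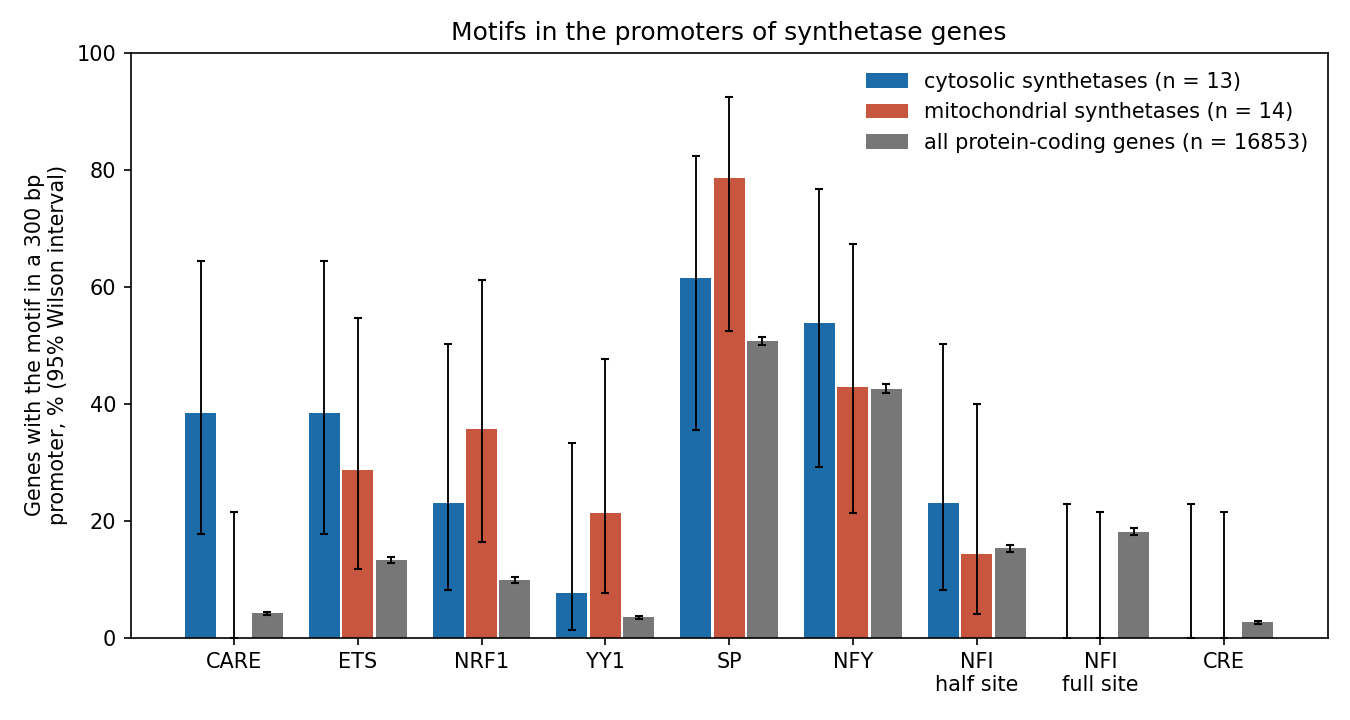
Share of genes (%, bars from 0, with 95% Wilson intervals) with each motif in a 300 bp RefSeq promoter, for 13 cytosolic and 14 mitochondrial synthetases and 16853 protein-coding genes. CARE is at 38.5% in the cytosolic class, 0 in the mitochondrial class and 4.13% over all genes.

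Other genes of tRNA charging and of the response to uncharged tRNA were counted from a list of 16, chosen with earlier results of these data known. Of the 16, 9 had a peak (56.2%, 33.2 to 76.9) and 6 a peak from -1000 bp to the TSS (37.5%, 18.5 to 61.4). The shares of all protein-coding genes were 37.2% and 10.7%. The share of all genes lay inside the interval for any peak and below it for promoter peaks. The 6 genes with a promoter peak include *Eif2ak4*, *Atf4* and *Asns*, which belong to the response to uncharged tRNA and not to charging itself. *Gatb*, a subunit of the mitochondrial glutamyl-tRNA amidotransferase that makes glutaminyl-tRNA, had a promoter peak at chr3:85573948-85574120 with a score of 17.5, above 96.6% of all peaks and above every synthetase peak. *Tarsl2*, which encodes a second cytosolic threonyl-tRNA synthetase outside the naming rule, had peaks 726 bp upstream and 198 bp downstream, with scores of 6.97 and 15.7. In the response to uncharged tRNA, *Eif2ak4*, *Atf4* and *Asns*, the asparagine synthetase gene, each had a promoter peak, with scores of 3.98, 9.76 and 9.76. The *Asns* peak held a CARE 40 bp from its centre, as that of *Aars* did. *Eef1e1*, of the multisynthetase complex scaffold, had a peak 11 bp downstream of the TSS, whereas none was assigned to the scaffold genes *Aimp1* and *Aimp2*. *Pstk*, *Dtd1* and *Aarsd1* were the other genes with a peak, and *Qrsl1*, *Gatc*, *Mtfmt*, *Sepsecs* and *Dtd2* had none.
*Gatb* NFI full site without mismatch, chr3:85574053-85574081, plus strand: acgggttgTGGCGCATTGCCAgaactacg
*Asns* CARE, chr6:7693217-7693240, minus strand: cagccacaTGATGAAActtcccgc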

How the data were processed

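NFIC ChIP (3 libraries) and input DNA (1 library) of mouse pancreas were represented by the merged peak list that the authors deposited on mm10. The processing notes of the submitters name BWA, Picard and MACS2. A paragraph of the methods that opens with downloaded data gives RUbioSeq+ as the tool that aligned reads and called peaks, and HOMER as the tool that called, merged and annotated peaks. Which of these steps made this list, and their thresholds, is not given in the sources used here. The peak score is deposited on a scale that is not stated, and the focus ratio is a fraction of tags that the authors deposited. With 0 columns of values for single samples, library depth is unknown and neither normalization nor replicate error could be computed.

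Genes were taken by symbol, with the nearest gene and distance of the deposited annotation. RefSeq GRCm38.p6, on which 92.6% of 15747 peaks had the same distance, gave start sites, sequence and neighbouring genes. Motifs were searched on both strands in 200 bp windows and, for promoters, in 300 bp. The background was planned as all 21887 protein-coding genes, and was restricted to the 21000 with a curated TSS after the values had been seen. Over all 21887 it was 35.7% for any peak and 10.3% for a promoter peak, against 37.2% and 10.7%.

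The members, lists and motifs were chosen with earlier results of these data known. Every synthetase gene was named, apart from 1 that is not reported here and enters only the counts, with positions for promoter peaks and the highest peaks. NFI full sites in promoter peaks were printed by rule, with none from chromosome 18. No p-value was computed, as neither genes nor merged peaks are replicates. The motif search found 100% of 2000 planted sites per motif in simulated data. Alternatives varied the peaks kept, promoter window, gene assignment, class, peak taken per gene, mismatches and window. Python 3.11.15, numpy 2.4.6, pandas 2.3.3, scipy 1.17.1, pysam 0.24.0 and matplotlib 3.10.9 were used.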

Additional observations from a re-analysis of the deposited data

How the results depend on the processing

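Of 27 alternatives over 8 results, 15 stayed within 1.5 times of the reported value. With peaks of the upper 2 quartiles of score alone, the genes with a peak numbered 10 instead of 16 (6 instead of 10 cytosolic), and cytosolic genes with a promoter peak 2 instead of 4. With any peak within 100 kb of a RefSeq TSS, the counts were 34 genes in all, 19 cytosolic and 15 mitochondrial, where 72.1% of all genes had such a peak. So did 87.3% of initiation and elongation factors and 82.1% of mitochondrial ribosomal proteins. Mitochondrial genes with a promoter peak numbered 1 as reported, 3 up to 100 bp downstream, 4 up to 1000 bp, 2 when every RefSeq TSS was counted, and 5 with every RefSeq TSS up to 1000 bp, an alternative chosen after seeing the data. The median highest score of cytosolic genes was 4.38 instead of 7.27 when only peaks within 1000 bp of the TSS were taken. That of mitochondrial genes was then 8.37 instead of 7.27. Without a mismatch, 4 instead of 10 synthetase peaks held an NFI full site, and no share over all peaks is given for that setting. The causes were not tested beyond what each alternative leaves out or adds by construction. No paired analysis was possible because the list merges the libraries.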
